A study of Nothobranchius furzeri with 30 samples.

Results

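The genes that load, prime, fuse and recycle synaptic vesicles, together with the genes of the ribbon synapse, were followed in the ageing retina of the African turquoise killifish (Nothobranchius furzeri). Members were chosen by gene name, with no measured value, as the loci whose name in the authors' locus annotation belongs to one of the families of synaptotagmins, synapsins, synaptophysins, SV2, SNAP, syntaxins, STXBP, VAMP, complexins, UNC13, RIMS, RIMBP, bassoon, piccolo, ERC, CTBP2, NSF, NAP, vesicular glutamate transporters, dynamins and synaptojanins. The rule itself was set with earlier results of these data known. It found 129 of 24989 loci, carrying 96 distinct names. Of these loci, 3 were BSN copies whose copy number is written with spaces, and 57 carried one of 24 names that stand on more than 1 locus. Reads of near-identical copies can be split between such loci, so their single values are uncertain.

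The samples were neural retinas of 30 female wildtype fish of the inbred GRZ-AD strain, untreated, in groups of 10 aged 6, 12 or 18 weeks, and the left and right retina of each fish were pooled into 1 sample. The retinal pigment epithelium (RPE) had been removed before RNA extraction. RNA was measured by QuantSeq, a 3′ tag method in which reads come from the end of a transcript, so that counts carry no length scaling and levels were not compared between different genes. The comparison of ages asks which synaptic genes change between young adult, middle-aged and old retinas.

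A synaptic vesicle is filled with transmitter by a vesicular transporter, is held at the active zone by large scaffold proteins, is primed by UNC13 and RIM proteins, and fuses when a VAMP on the vesicle zips together with syntaxin and SNAP25 on the cell membrane. Synaptotagmins sense the calcium that triggers fusion, complexins clamp and promote it, NSF takes the used SNARE complex apart, and dynamin and synaptojanin act in the retrieval of the membrane. Photoreceptors and bipolar cells release glutamate continuously from ribbon synapses, where a plate built of RIBEYE, a product of the CTBP2 gene, tethers vesicles beside bassoon and piccolo, and where a different set of complexins (CPLX3 and CPLX4) and of syntaxins (STX3) serves than at conventional synapses.

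Between 3552371 and 5840792 counts per fish fell on loci, and no pair of samples held identical counts. Of the members, 105 passed edgeR's filter on low counts, and the other 24, among them 4 at 0 in every fish, never exceeded 21 counts in any fish and are not described further. Mean CPM (counts scaled to library size with TMM factors, per 1e+06) of the tested members ran from 1.64 to 867.6 with a median of 36.2, against a median of 14.0 over all 13975 tested loci. The members took 0.947% of the counts on loci at 6 weeks, 1.02% at 12 weeks and 1.09% at 18 weeks on average, as a share of the unscaled library. The direction depends on scaling, as mean TMM factors were 0.908 at 6 weeks and 1.12 at 18 weeks. With these factors the mean summed CPM of the tested members went the other way, at 10458 at 6 weeks, 10296 at 12 weeks and 9793.2 at 18 weeks. The mean sum of active zone scaffolds and priming factors, piccolo included, was 2625.5 CPM at 6 weeks and 1723.7 CPM at 18 weeks. Sums of other roles moved less and both ways, such as fusion SNAREs (1508.7 to 1640.1 CPM) and synaptotagmins (1571.4 to 1520.8 CPM). The total therefore does not describe the members as a whole. The median log2FC of all tested loci at 18 against 6 weeks was 0.02 with TMM factors and 0.32 with library size alone. Changes are therefore given with TMM factors, and the library-size value is added for part of the members. In bulk retina, fewer cells of a type and less RNA per cell cannot be told apart.

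The library of 18-week fish 1 stood apart. Its first principal component score over all tested loci was 101.4, and it was the highest of the 10 18-week-old fish for 41 of the tested members and the lowest for 34, whereas each other 18-week-old fish was the highest for 3 to 13 and the lowest for 4 to 15. Its summed CPM was 2227 for retinal ganglion cell markers, against 1201 to 1444 in the other 18-week-old fish, and 1303 for bipolar cell markers, against 1518 to 1967. RBPMS2 holds most of the ganglion cell sum (mean 1179.9 CPM at 18 weeks). Its sums for proliferating cells (399.9 against 179.9 to 262.7), rods, Muller glia and immune cells were also above those fish, and the other marker lists lay within their range. This library had the lowest share of reads on no feature (17.97%) and the highest ambiguous share (1.85%) of all fish. Fits of single members that rest on it are given with and without it, but the ratios between related loci were not rerun without it.

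At 18 against 6 weeks, 26 tested members were lower and 14 were higher at an FDR under 0.05, where FDR is the Benjamini-Hochberg adjusted p of edgeR's quasi-likelihood test over all 13975 tested loci. Over all tested loci, 15.2% were lower and 14.0% were higher by the same rule, and among loci of at least 10 CPM 17.8% were lower and 16.5% higher, so that the members' share was above the background for falls and close to it for rises. The median log2FC of the tested members was 0.00, near that of all tested loci. Without 18-week fish 1, all 26 lower members remained, 12 of the 14 higher members remained, and the counts were 30 and 13. With library size alone, the counts turned to 10 lower and 53 higher, beside 4.56% and 46.1% of all tested loci.

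The calls also moved when the RPE level of each fish, the mean log2 CPM of RPE marker genes, entered the fit as a covariate. This level ran from 4.671 to 5.713 at 6 weeks and from 3.429 to 4.66 at 18 weeks, with no overlap. The fit can therefore separate age from RPE level only in part, and a call lost in it does not assign the change to RPE. With the covariate the counts were 20 lower and 4 higher, beside 5.77% and 4.43% of all tested loci. Of the 26 lower members 18 remained, and of the 14 higher members 3 remained (VAMP4, CPLX4C and STX2A). The rises of SYT1A, SYT4, SYPA, STXBP6 and NSFA, at log2FC between -0.10 and 0.26, and the falls of RIMS2A (-0.39, FDR 0.0528), NAPG (-0.19, FDR 0.347) and both SYT14A loci (-0.53, FDR 0.0809, and -0.22, FDR 0.309) were among those that no longer passed, and further ones are given with the member.

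A stricter rule that asks for a change of 2-fold or more (log2FC beyond 1 or -1) as well as the FDR was passed by 5 members, 4 lower (PCLOA, STX3A and SYT7B among them) and 1 higher (CPLX4C). Over all tested loci 2.03% were lower and 1.31% higher by this rule. The PCLOA, STX3A and SYT7B log2FC lie at the threshold, and 1 fish decided the count, which was 3 without 18-week fish 1 and 3 without 18-week fish 4. With library size alone the count was 3 and the members differed, as PCLOA, STX3A and SYT7B stayed below a 2-fold change and the SYT2 locus XLOC_016477 passed it.

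**Figure D1:**
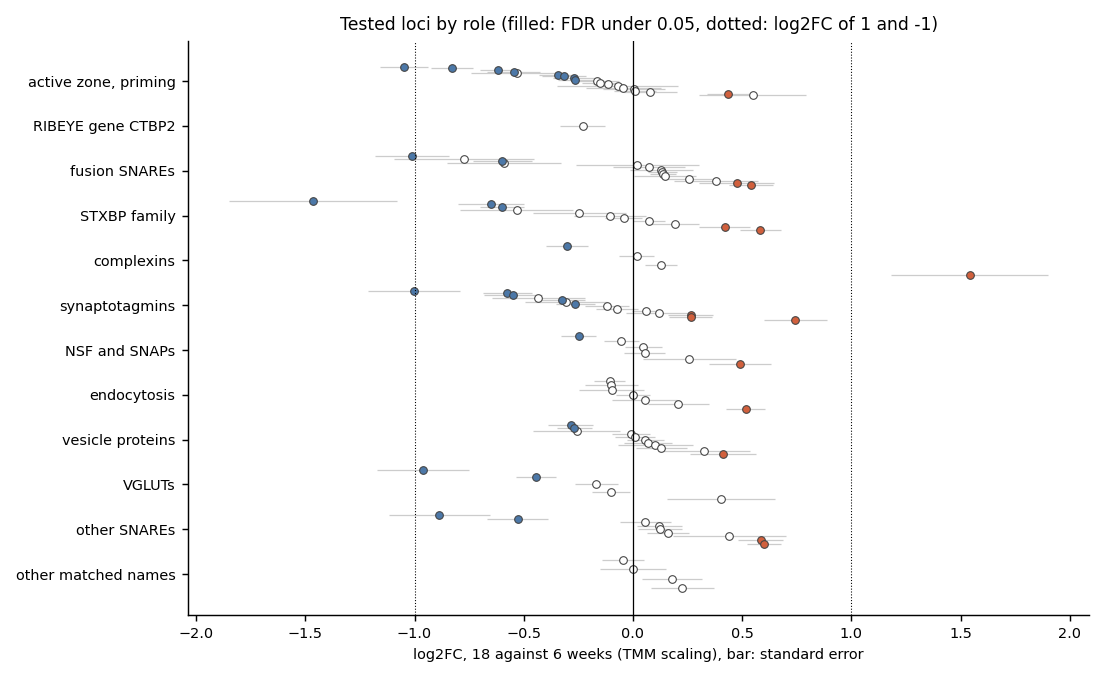
Log2FC at 18 against 6 weeks of the 105 tested members, 1 point per locus and 1 row of points per role, with the standard error as a bar, filled points at an FDR under 0.05 (blue lower, red higher) and dotted lines at a log2FC of 1 and -1. The active zone row holds 8 filled points to the left of 0 and 1 to the right, while the other rows hold between 0 and 5 filled points on either side.

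Among members of at least 10 mean CPM, the largest falls were those of the piccolo genes, which encode active zone scaffolds. Of 19 tested loci for scaffolds and priming factors, 8 were lower and 1 was higher at 18 weeks, and their median log2FC was -0.16. Their summed CPM had a median of 2651.9 at 6 weeks, 2393.1 at 12 weeks and 1723.6 at 18 weeks, and every 18-week-old fish (1306.7 to 2004.5) lay below every 6-week-old fish (2348.3 to 2878.6). The piccolo genes make up a large part of this sum and most of its fall, so the sum does not describe the class. Of the 19 loci, 10 did not pass the FDR threshold.

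Piccolo and bassoon are giant scaffold proteins that organise the active zone, and bassoon anchors the ribbon in photoreceptors. As reads come from the end of a transcript, products of these genes with another 3′ end may go uncounted. PCLOA (XLOC_004899) had 688 CPM in the lowest, 894 in the median and 1039 in the highest 6-week-old fish, 580, 876 and 945 at 12 weeks, and 250, 422 and 507 at 18 weeks. All 18-week-old fish lay below all 6-week-old and all 12-week-old fish. The log2FC at 18 against 6 weeks was -1.05 (SE 0.11, FDR 2.58e-09), and mean CPM was 871 at 6 weeks and 421 at 18 weeks.

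PCLOB (XLOC_019246), the second piccolo gene, had 533, 641 and 731 CPM as lowest, median and highest value at 6 weeks, 415, 535 and 714 at 12 weeks, and 276, 342 and 466 at 18 weeks. All 18-week-old fish lay below all 6-week-old fish and overlapped the 12-week-old fish. Its log2FC was -0.83 (SE 0.10, FDR 2.69e-08). With library size alone both piccolo genes were still lower, at -0.75 for PCLOA (FDR 2.50e-07) and -0.53 for PCLOB (FDR 8.34e-05).

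Bassoon reads fell on 3 tested loci. BSN XLOC_021495 had 177, 200 and 224 CPM as lowest, median and highest value at 6 weeks, 142, 179 and 239 at 12 weeks, and 108, 129 and 153 at 18 weeks. The 18-week-old fish did not overlap the 6-week-old fish, with a log2FC of -0.62 (SE 0.08, FDR 7.34e-07) and of -0.31 with library size alone (FDR 0.00693). Every 18-week-old fish lay below every 6-week-old fish in 4 members (PCLOA, PCLOB, this BSN locus and STXBP5L), and above in 3 (VAMP4, STXBP4 and the VAMP1 locus XLOC_024871), while over all tested loci 1.33% lay wholly below and 1.01% wholly above.

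The other pair of BSN loci carry consecutive numbers and differed from each other. BSN XLOC_016526 had medians of 56.8, 54.4 and 39.4 CPM at 6, 12 and 18 weeks, with a log2FC of -0.55 (SE 0.12, FDR 7.08e-04), and 18-week fish 1 was the lowest at 14.7 CPM. With library size alone its log2FC was -0.24 (FDR 0.108). BSN XLOC_016525 had medians of 40.6, 41.3 and 39.3 CPM and a log2FC of 0.01 (SE 0.10, FDR 0.961), and its ages overlapped.

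Ratios within a fish do not depend on library scaling. The mean log2 ratio of all BSN to all PCLO counts was -2.34 ± 0.17 at 6 weeks, -2.30 ± 0.23 at 12 weeks and -1.89 ± 0.15 at 18 weeks (SD, n = 10 each), so that PCLO counts fell relative to BSN counts. The difference of 0.45 between 18 and 6 weeks passed a two-sided permutation test (100000 resamples, adjusted p = 0.0002 over 5 ratios), and 9 of 10 18-week-old fish lay above every 6-week-old fish. Within bassoon, XLOC_016525 gained on XLOC_021495 by 0.62 (same permutation test, adjusted p = 0.00075) and on XLOC_016526 by 0.59 (adjusted p = 0.00667) on the log2 scale, each adjusted over 25 pairs of related loci that were chosen after the data had been seen.

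**Figure D2:**
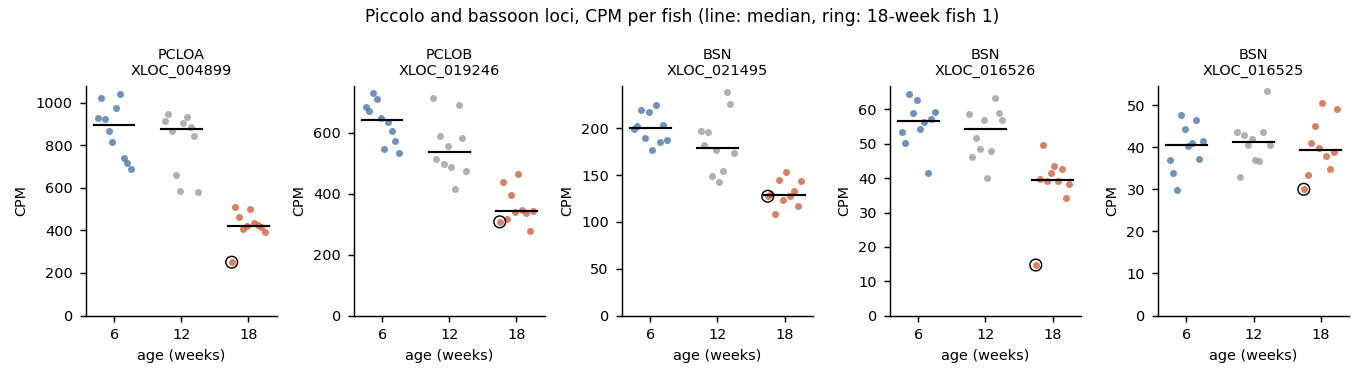
CPM of the 2 piccolo and the 3 tested bassoon loci in each fish by age in weeks, with a line at the median of 10 fish and a ring on 18-week fish 1, each axis starting at 0. PCLOA, PCLOB and BSN XLOC_021495 show no overlap between 6-week-old and 18-week-old fish, whereas BSN XLOC_016525 stays at medians near 40.6, 41.3 and 39.3 CPM.

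RIM and UNC13 proteins prime docked vesicles. RIMS2A was lower at 18 weeks, with a lowest, median and highest value of 143, 156 and 184 CPM at 6 weeks, 124, 148 and 160 at 12 weeks, and 67.7, 132 and 146 at 18 weeks (log2FC -0.34, SE 0.09, FDR 0.00348). RIMS1 (XLOC_001101, log2FC -0.26, FDR 0.0123), UNC13BA (-0.32, FDR 0.015) and UNC13C (-0.27, FDR 0.0324) also fell. These 4 falls depend on scaling, as with library size alone RIMS2A was at -0.04, UNC13BA at -0.01, UNC13C at 0.03 and RIMS1 at 0.04. The UNC13C call held in 26 of the 30 fits with 1 fish omitted (highest FDR 0.0755), and its log2FC was -0.21 without 18-week fish 1 (FDR 0.0464). RIMS3, a short RIM-related protein, was the 1 active zone member that rose, from a median of 52.5 to 70.9 CPM (log2FC 0.44, SE 0.10, FDR 7.05e-04), with 9 of 10 18-week-old fish above every 6-week-old fish, but was at 0.23 with the RPE covariate (FDR 0.336).

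The remaining tested loci of the active zone did not pass the FDR threshold. RIMS2B had a log2FC of -0.11 (FDR 0.209), RIMS1A of -0.53 (FDR 0.0549, from a median of 9.57 to 6.82 CPM), and UNC13D of 0.55 (FDR 0.0918, at a median of 2.59 and 3.94 CPM). RIM-binding protein 2, which links RIM to calcium channels, had log2FC of -0.16 (XLOC_023676) and -0.05 (XLOC_006943). The 4 ERC1 loci, for a scaffold that binds RIM and bassoon, lay between -0.15 and 0.08.

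CTBP2 encodes the RIBEYE protein of the ribbon plate as well as a transcriptional co-repressor, and 3′ counts do not separate the products of one gene that end alike. CTBP2 (XLOC_008274) had a lowest, median and highest value of 34.1, 44.5 and 55.3 CPM at 6 weeks, 29.9, 40.3 and 48.8 at 12 weeks, and 27.1, 38.4 and 47.1 at 18 weeks. The ages overlapped, with a log2FC of -0.23 (SE 0.10, FDR 0.0927). It was -0.27 without 18-week fish 1 (FDR 0.0358), the one fish whose omission took it past the threshold, and 0.08 with library size alone. With the RPE covariate it was -0.60 (FDR 0.0041).

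Among the SNAREs of fusion, 2 of 14 tested loci were lower and 2 were higher at 18 weeks. STX3A (XLOC_005210), a syntaxin 3 gene and thus of the family used at ribbon synapses, had a lowest, median and highest value of 5.84, 13.4 and 15.7 CPM at 6 weeks, 6.64, 9.37 and 13.7 at 12 weeks, and 3.21, 6.27 and 8.93 at 18 weeks. The ages overlapped through 6-week fish 8, which was at 5.84 CPM while the other 6-week-old fish were at 10.9 CPM or more. The log2FC was -1.01 (SE 0.17, FDR 2.34e-05), and -0.71 with library size alone (FDR 8.85e-04).

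SNAP25, the membrane SNARE with the most counts here, did not pass at any of its 3 tested loci. XLOC_009982 had a lowest, median and highest value of 727, 844 and 897 CPM at 6 weeks, 774, 823 and 949 at 12 weeks, and 793, 871 and 1156 at 18 weeks (log2FC 0.14, SE 0.07, FDR 0.133). XLOC_013386 had medians of 378, 381 and 416 CPM (log2FC 0.14, FDR 0.0829), and XLOC_009983, at medians under 2.1 CPM, had -0.77 (SE 0.32, FDR 0.0665).

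On the vesicle side, VAMP1 XLOC_024871 rose, with a lowest, median and highest value of 80.7, 100.1 and 105 CPM at 6 weeks, 90.7, 117 and 137 at 12 weeks, and 108, 133 and 240.3 at 18 weeks. All 18-week-old fish lay above all 6-week-old fish, with a log2FC of 0.54 (SE 0.10, FDR 1.22e-04), and of 0.42 without 18-week fish 1. With the RPE covariate it did not pass, at 0.16 (FDR 0.487). The other VAMP1 loci (XLOC_010525, 0.13, and XLOC_024872, 0.02) and VAMP2 (0.07), which the second name in the annotation gives as vamp3, did not pass. STX2A, a syntaxin outside the synaptic set, rose from a median of 4.48 to 6.65 CPM (log2FC 0.47, FDR 0.0328), a call that held in 21 of the 30 fits with 1 fish omitted (highest FDR 0.0691).

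SNAREs that serve other steps of membrane traffic moved in both directions, with 2 of 9 tested loci higher and 2 lower. VAMP4, a SNARE of the trans-Golgi network and of endosomes, had a lowest, median and highest value of 63.5, 73.7 and 83.7 CPM at 6 weeks, 63.6, 82.8 and 104 at 12 weeks, and 100.3, 109 and 123 at 18 weeks. All 18-week-old fish lay above all 6-week-old fish (log2FC 0.60, SE 0.08, FDR 3.34e-07). STX16, the syntaxin of the same compartment, rose from a median of 32.8 to 46.6 CPM (log2FC 0.59, SE 0.10, FDR 3.71e-05), with 9 of 10 18-week-old fish above every 6-week-old fish, and was at 0.43 with the RPE covariate (FDR 0.0643). SNAP47 (median 8.49 to 4.77 CPM, log2FC -0.89, FDR 0.00359) and the endosomal syntaxin STX8 (18.2 to 12.2 CPM, log2FC -0.53, FDR 0.00388) fell, and with the RPE covariate neither passed, at -0.99 (FDR 0.0563) and -0.05 (FDR 0.90).

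**Figure D3:**
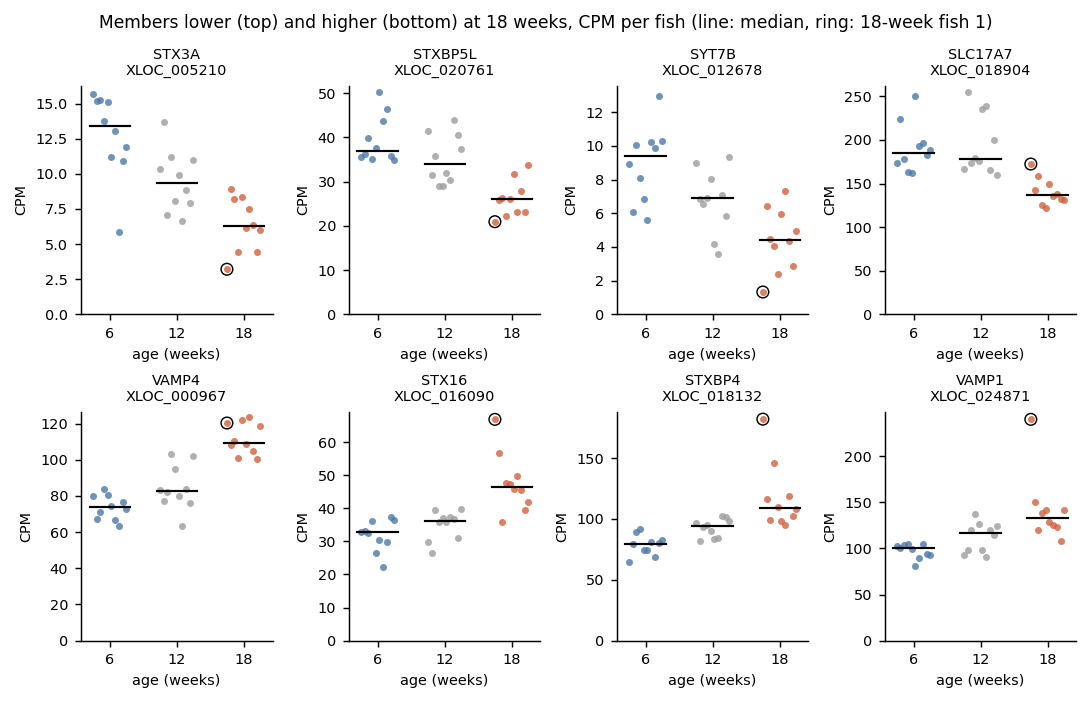
CPM per fish by age in weeks for 4 members that were lower (STX3A, STXBP5L, SYT7B, SLC17A7 XLOC_018904) and 4 that were higher at 18 weeks (VAMP4, STX16, STXBP4, VAMP1 XLOC_024871), with a line at the median of 10 fish and a ring on 18-week fish 1. STXBP5L, VAMP4, STXBP4 and VAMP1 XLOC_024871 show no overlap between 6-week-old and 18-week-old fish, and 18-week fish 1 is the lowest 18-week-old fish for STX3A at 3.21 CPM and SYT7B at 1.32 CPM.

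Of the 11 STXBP loci, 3 were lower and 2 higher. The tomosyns bind syntaxin and SNAP25 in place of VAMP and hold back fusion. STXBP5L (tomosyn-2) had a lowest, median and highest value of 35.0, 37.0 and 50.2 CPM at 6 weeks, 29.0, 33.9 and 44.0 at 12 weeks, and 20.9, 26.0 and 33.8 at 18 weeks. All 18-week-old fish lay below all 6-week-old fish (log2FC -0.60, SE 0.10, FDR 1.81e-05). STXBP5B XLOC_009667 also fell, from a median of 11.3 to 7.25 CPM (log2FC -0.65, FDR 0.00124), but did not pass with library size alone (-0.35, FDR 0.056). STXBP5A XLOC_009666, which matched the same RefSeq symbol (stxbp5a) and carries the preceding number, did not pass, at 71.3 and 69.9 CPM (log2FC -0.04, FDR 0.745). With library size alone its log2FC was 0.26 (FDR 0.0328).

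STXBP4 and STXBP6 rose. STXBP4, known in mammals for binding syntaxin 4 in glucose transporter traffic, had a lowest, median and highest value of 64.6, 79.5 and 91.5 CPM at 6 weeks, 82.0, 94.4 and 103 at 12 weeks, and 95.1, 109 and 182 at 18 weeks. All 18-week-old fish lay above all 6-week-old fish (log2FC 0.58, SE 0.09, FDR 1.17e-05), and the log2FC was 0.49 without 18-week fish 1. With the RPE covariate it did not pass, at 0.29 (FDR 0.149). STXBP6 (amisyn), which binds syntaxin and SNAP25, rose from a median of 54.9 to 65.6 CPM (log2FC 0.42, FDR 0.00563).

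The complexins of the ribbon synapse and of the conventional synapse were measured together. CPLX4 (XLOC_007093) had a lowest, median and highest value of 793, 871 and 1010 CPM at 6 weeks, 681, 827 and 977 at 12 weeks, and 775, 862 and 1155 at 18 weeks, and its ages overlapped (log2FC 0.02, SE 0.08, FDR 0.899). CPLX3 was at medians of 193, 191 and 207 CPM (log2FC 0.13, SE 0.07, FDR 0.201). CPLX2, of conventional synapses, fell from a median of 37.2 to 28.9 CPM (log2FC -0.30, SE 0.10, FDR 0.0148), but was at 0.00 with library size alone. The mean log2 ratio of CPLX3 plus CPLX4 to CPLX2, which does not depend on scaling, was 4.89 ± 0.26 at 6 weeks and 5.25 ± 0.22 at 18 weeks (SD, n = 10 each), a difference of 0.35 (permutation test, adjusted p = 0.00963).

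CPLX4C (XLOC_014629), a further complexin 4 gene, was the member with the largest rise. It had a lowest, median and highest value of 3.37, 6.67 and 15.7 CPM at 6 weeks, 6.61, 11.5 and 19.0 at 12 weeks, and 0.377, 23.5 and 39.3 at 18 weeks. The ages overlapped widely, as 6 of 10 18-week-old fish lay above every 6-week-old fish and 2, fish 1 at 0.377 CPM and fish 4 at 3.19 CPM, lay below every one. The log2FC was 1.54 (SE 0.36, FDR 0.00122), and 1.69 without 18-week fish 1.

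Synaptotagmins moved apart, with 3 of 14 tested loci higher and 5 lower. SYT1 and SYT2 are the fast calcium sensors of release. SYT1A rose from a median of 124 to 148 CPM (log2FC 0.26, SE 0.10, FDR 0.0384), but 10 of the 30 fits with 1 fish omitted lost this call (highest FDR 0.079). SYT2 XLOC_016477 had a lowest, median and highest value of 8.66, 14.0 and 16.5 CPM at 6 weeks, 8.04, 15.4 and 22.2 at 12 weeks, and 15.5, 21.1 and 33.9 at 18 weeks (log2FC 0.74, SE 0.15, FDR 1.75e-04), and its log2FC was 0.33 with the RPE covariate (FDR 0.345). SYT2A had 137, 161 and 186 CPM at 6 weeks, 133, 141 and 196 at 12 weeks, and 47.9, 113 and 138 at 18 weeks (log2FC -0.58, SE 0.11, FDR 1.63e-04).

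The opposite course of the SYT2 loci was larger than the spread between fish. Their log2 ratio (SYT2 to SYT2A) was -3.62 ± 0.26 at 6 weeks, -3.28 ± 0.38 at 12 weeks and -2.27 ± 0.69 at 18 weeks (SD, n = 10 each), and all 18-week-old fish lay above all 6-week-old fish. The difference of 1.35 had a permutation p of 1e-05, the smallest that 100000 resamples can give (adjusted p = 0.00025 over 25 pairs). Over both SYT2 loci together, the log2 ratio of SYT1 to SYT2 rose by 0.70 (permutation test, adjusted p = 0.0002 over 5 ratios), with 7 of 10 18-week-old fish above every 6-week-old fish.

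SYT7, a slow, high-affinity calcium sensor, fell at both loci. SYT7B had a lowest, median and highest value of 5.61, 9.41 and 13.0 CPM at 6 weeks, 3.58, 6.88 and 9.32 at 12 weeks, and 1.32, 4.40 and 7.33 at 18 weeks (log2FC -1.002, SE 0.21, FDR 4.14e-04), with 7 of 10 18-week-old fish below every 6-week-old fish. SYT7 (XLOC_019160) fell from a median of 81.7 to 61.4 CPM (log2FC -0.32, FDR 0.019), but was at -0.02 with library size alone. Both SYT14A loci fell (-0.55, FDR 0.00175, and -0.26, FDR 0.0212). SYT4 (log2FC 0.26, FDR 0.0479) rose, but this call held in only 11 of the 30 fits with 1 fish omitted (highest FDR 0.122, without 18-week fish 1).

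The synaptotagmins with the most counts did not pass. SYT5B was at medians of 617, 634 and 638 CPM (log2FC 0.06, SE 0.07, FDR 0.513) and SYT5A at 411, 414 and 355 CPM (log2FC -0.07, SE 0.10, FDR 0.601). The other 4 synaptotagmins that did not pass (SYT14B, SYT12, SYT6A and SYT9B) had log2FC between -0.43 and 0.12.

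NSF is the ATPase that separates used SNARE complexes, with SNAP adaptors encoded by NAPA, NAPB and NAPG. NSFA rose from a median of 78.5 to 97.7 CPM (log2FC 0.49, SE 0.14, FDR 0.00917), and its highest value, 246.5 CPM, is that of 18-week fish 1. Without this fish the log2FC was 0.29 (FDR 0.0263). NAPG fell from a median of 67.4 to 54.8 CPM (log2FC -0.25, SE 0.08, FDR 0.0172), but was at 0.06 with library size alone. The NAPA, NSFB and both NAPB loci did not pass, with log2FC between -0.05 and 0.26. With library size alone each of them was higher at an FDR under 0.05, with log2FC between 0.25 and 0.56.

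In membrane retrieval, 1 of 7 tested loci changed. Synaptojanin 1 (SYNJ1), the lipid phosphatase that helps to strip the clathrin coat, had a lowest, median and highest value of 43.4, 54.7 and 68.8 CPM at 6 weeks, 57.7, 69.7 and 83.5 at 12 weeks, and 63.4, 78.4 and 106 at 18 weeks. Its log2FC was 0.52 (SE 0.09, FDR 2.76e-05) and 7 of 10 18-week-old fish lay above every 6-week-old fish, and it was at 0.37 with the RPE covariate (FDR 0.0608). The dynamin loci DNM1A (-0.11), DNM1B (0.05) and both DNM2 loci (-0.10 each), and the AP180 gene SNAP91 (0.00 and 0.21), did not pass. The mitochondrial fission gene DNM1L, NSFL1C and SYNJ2BP, whose names match the rule without a known part in vesicle fusion, did not pass either.

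Vesicle membrane proteins were mostly within the spread between fish, with 1 of 11 tested loci higher and 2 lower. Synaptophysin, an abundant vesicle protein, is encoded by SYPA and SYPB. SYPB was at a lowest, median and highest value of 378, 425 and 516 CPM at 6 weeks, 404, 446 and 509 at 12 weeks, and 355, 431 and 689 at 18 weeks (log2FC -0.01, SE 0.09, FDR 0.956). SYPA had 139, 169 and 192 CPM at 6 weeks, 116, 166 and 202 at 12 weeks, and 154, 192 and 549 at 18 weeks. Its log2FC of 0.41 (FDR 0.0349) was 0.15 (FDR 0.178) without 18-week fish 1, which was at 549 CPM while the next 18-week-old fish was at 219 CPM, and the call held in 26 of the 30 fits with 1 fish omitted.

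Both loci of SV2A, a vesicle glycoprotein, fell (log2FC -0.29, FDR 0.0357, and -0.27, FDR 0.0109), but both were at 0.03 with library size alone, and the first held in 23 of the 30 fits with 1 fish omitted. Synapsins tether vesicles of the reserve pool at conventional synapses. SYN2A (0.07) did not pass, and SYN3, at medians of 16.5 and 23.3 CPM, had a log2FC of 0.33 (FDR 0.253) and of 0.47 without 18-week fish 1 (FDR 0.0035), which was at 1.51 CPM.

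Vesicular glutamate transporters fill the vesicles of photoreceptors, bipolar cells and ganglion cells. SLC17A7 (VGLUT1) XLOC_018904 had a lowest, median and highest value of 162, 185 and 250 CPM at 6 weeks, 160, 178 and 256 at 12 weeks, and 122, 137 and 172 at 18 weeks, with 9 of 10 18-week-old fish below every 6-week-old fish. Its log2FC was -0.44 (SE 0.09, FDR 3.77e-04) with TMM factors, -0.14 with library size alone (FDR 0.196) and -0.23 with the RPE covariate (FDR 0.277). The second SLC17A7 locus (XLOC_008371) was at medians of 129, 132 and 121 CPM (log2FC -0.10, FDR 0.418), and the log2 ratio of this locus to the first rose by 0.33, which did not pass (permutation test, adjusted p = 0.054 over 25 pairs).

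SLC17A8 (VGLUT3), known from amacrine cells in mammals and from hair cells, fell from a median of 7.48 to 4.16 CPM (log2FC -0.96, SE 0.21, FDR 7.15e-04). SLC17A6B (VGLUT2, the transporter of ganglion cells) was at medians of 188, 165 and 149 CPM and did not pass (log2FC -0.17, FDR 0.209), but was at -0.24 without 18-week fish 1 (FDR 0.0336). The log2 ratio of SLC17A7 to SLC17A6 differed by -0.13 between 18 and 6 weeks (permutation test, adjusted p = 0.271).

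**Figure D4:**
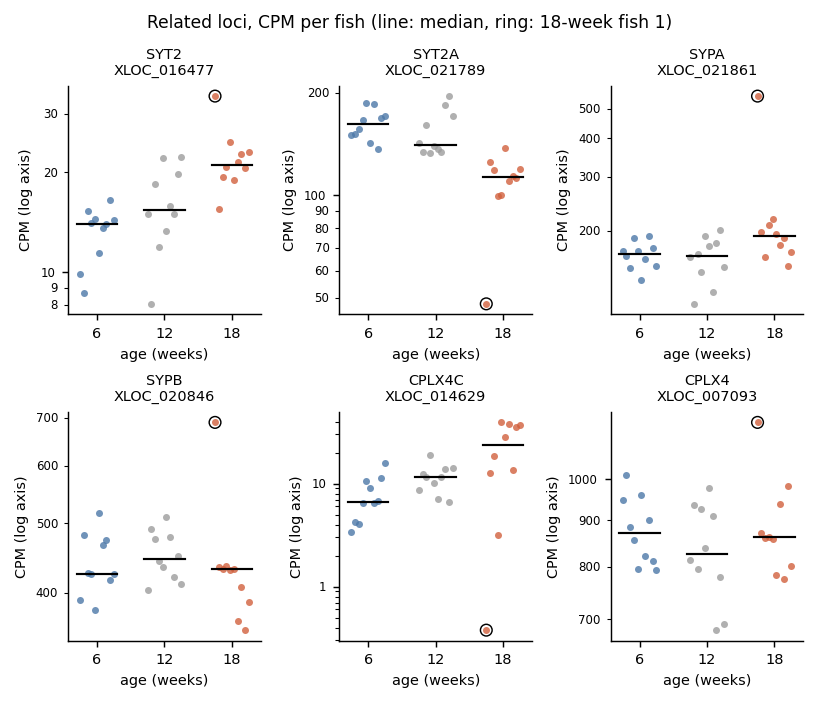
CPM per fish on a log axis by age in weeks for related loci (SYT2 and SYT2A, SYPA and SYPB, CPLX4C and CPLX4), with a line at the median of 10 fish and a ring on 18-week fish 1. SYT2 rises to a median of 21.1 CPM while SYT2A falls to 113 CPM, and 18-week fish 1 is the highest fish for SYPA at 549 CPM and the lowest for CPLX4C at 0.377 CPM.

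Of the 25 pairs of related loci of at least 10 mean CPM, over 21 gene names, 4 had a log2 ratio that differed between 18 and 6 weeks (permutation test, adjusted p under 0.05). These were the SYT2 pair, both BSN pairs given above, and SYPB to SYPA, whose ratio fell by 0.34 (adjusted p = 0.0201), with 6 of 10 18-week-old fish below every 6-week-old fish. The pairs were not rerun without 18-week fish 1. This fish added to the difference in SYPB to SYPA (0.33, 18-week median 1.12), SYT2 to SYT2A (-0.50, median -2.36) and BSN XLOC_016525 to XLOC_016526 (1.02, median 0.07). In BSN XLOC_016525 to XLOC_021495 it lay the other way, as the lowest 18-week-old fish (-2.08, median -1.65). In PCLOA against PCLOB (difference -0.22, adjusted p = 0.148) and in the abundant SNAP25 loci (difference -0.01, adjusted p = 0.911) no difference was detected.

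At 12 against 6 weeks little had moved. No member passed the stricter rule, beside 0.336% of all tested loci higher and 0.165% lower. SYNJ1 alone passed the FDR threshold, higher by a log2FC of 0.38 (SE 0.09, FDR 0.0118), where 1.30% of all tested loci were higher and 0.909% lower. At an unadjusted p under 0.05 of the same edgeR test there were 13 members. The share of all tested loci at that level was not computed, so this count cannot be set against the background. DESeq2 gave 1 member past its adjusted p and 0 past the stricter rule.

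At 18 against 12 weeks, 14 members were lower and 10 higher by FDR, beside 6.93% and 5.19% of all tested loci. By the stricter rule 1 member was lower, beside 0.766% of all tested loci. PCLOA fell by 0.94 (SE 0.11, FDR 3.12e-07), PCLOB by 0.63 (FDR 1.92e-05), BSN XLOC_021495 by 0.49 (FDR 1.25e-04) and SLC17A7 XLOC_018904 by 0.47 (FDR 6.19e-04) on the log2 scale. PCLOA was the 1 member in which all 18-week-old fish lay below all 12-week-old fish, as 0.379% of all tested loci did. The 18-week-old fish are shared between this comparison and that with 6 weeks, so the overlap of their calls is given only as a count, 12 lower and 9 higher members in both.

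Whether the later step was larger than the earlier was tested in the same fit, as the log2FC of 18 against 12 weeks minus that of 12 against 6 weeks, a test added after the data had been seen. PCLOA alone passed, at -0.84 (SE 0.18, FDR 0.0164), beside 0.694% of all tested loci with a more negative and 0.236% with a more positive later step. For the other members the steps were not shown to differ. Of the 26 lower members 24 had a log2FC below 0 at 12 weeks, and of the 14 higher members 12 had one above 0. Both log2FC share the 6-week-old fish, which by itself pushes them to the same side. The share over all tested loci picked in the same way was not computed, so these counts are description only.

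**Figure D5:**
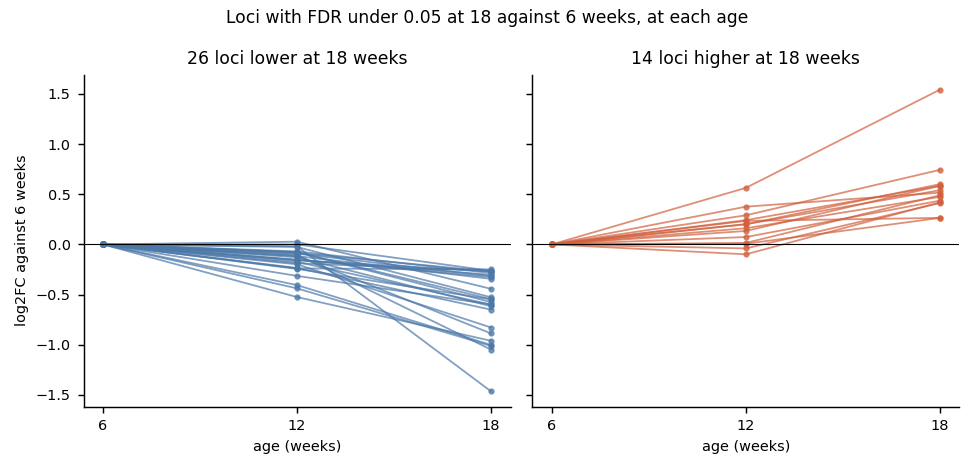
Log2FC against 6 weeks at 12 and 18 weeks of the 26 members that were lower and the 14 that were higher at 18 weeks by FDR, 1 line per locus, plotted against age in weeks, with 6 weeks set to 0. The lines were chosen by their value at 18 weeks, and 24 of 26 and 12 of 14 lie on the same side of 0 at 12 weeks. Both ages are set against the same 6-week-old fish.

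Proteins that work with the members, taken from lists chosen with earlier results of these data known, held 86 tested loci, of which 9 rose and 15 fell at 18 against 6 weeks by FDR, beside 14.0% and 15.2% of all tested loci. Of 7 tested subunits of the calcium channels of ribbon synapses none fell and 1 rose, the CACNA1D locus XLOC_021505 (mean 22.1 CPM at 6 weeks, log2FC 0.50, FDR 0.00207), whereas the more counted CACNA1D locus XLOC_021504 (mean 160.9 CPM) did not pass (0.12, FDR 0.50). Of 29 other active zone and priming proteins 1 rose and 5 fell, among them OTOF (otoferlin, the calcium sensor of hair cell ribbons, log2FC -0.39, FDR 0.0168) and the RPH3A locus XLOC_023711 (rabphilin, a RAB3 partner, log2FC -0.50, FDR 5.52e-04), while RPH3A XLOC_006887 did not pass (-0.14, FDR 0.26).

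Of 11 tested transporter and proton pump loci 2 rose, 1 of 3 loci of the inhibitory transporter SLC32A1 (XLOC_021518, log2FC 0.43, FDR 0.00105) and 1 of 2 loci of the pump subunit ATP6V1A (XLOC_014218, 0.50, FDR 0.0038). Of 15 other vesicle protein loci 4 rose and 5 fell, and SNCB (beta-synuclein) was among those that rose (log2FC 0.53, FDR 0.0013). The RAB27B locus XLOC_017047, of a small GTPase of vesicle docking, fell by 1.09 on the log2 scale (FDR 0.00414), while RAB27B XLOC_001019 rose (0.63, FDR 5.53e-04). The most counted RAB27B locus, XLOC_013164, whose second name is rab27a, also fell (mean 38.4 to 27.7 CPM, log2FC -0.47, FDR 0.0142). Of 24 clathrin pathway loci 1 rose, AP2A1 XLOC_022005 (from a mean of 73.4 to 158 CPM, log2FC 1.10, FDR 4.69e-07), and 5 fell, among them 2 of 3 loci of the endophilin gene SH3GL2.

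Levels of cell type markers moved with age beside the members. Of 5 cone marker loci 4 were lower at 18 weeks, with a median log2FC of -0.90, and their summed CPM ran from 5895 to 9355 at 6 weeks and from 3709 to 5133 at 18 weeks. The rod marker sum had medians of 17024 and 17115 CPM, with 2 of 9 loci higher and none lower. Of 7 bipolar cell loci 1 was higher and 2, CABP5B and TRPM1B, were lower, and the sum had medians of 1862 and 1639 CPM. Of 10 tested RPE loci all 10 were lower, with sums of 730 to 1547 CPM at 6 weeks and of 260 to 735 CPM at 18 weeks, though RPE had been rinsed away before extraction. The paper reports that RPE clung more firmly to the retina in young fish and was harder to take off. It proposes that lower RPE genes with age may be an artifact of this step. Of 7 loci of the Muller glia list 4 were higher and none lower, and the sum ran from 1546 to 1765 CPM at 6 weeks and from 2115 to 2502 CPM at 18 weeks, with no overlap. Matched by name, this list also took in AQP10, AQP11 and AQP12 loci, of which AQP10B alone was tested (log2FC 0.41, FDR 0.133). Of 7 immune cell loci 6 were higher, with a median log2FC of 0.90 and sums of 52.1 to 113 CPM at 6 weeks and 89.0 to 116 CPM at 18 weeks. AIF1L, taken into this list by its name, was among those that rose (log2FC 0.27, FDR 0.0173). It held a large part of the sums (means 40.2 CPM at 6 weeks and 48.5 CPM at 18 weeks). In the authors' single cells it was detected in 11.6%, against 2.29% for AIF1, so the sums may not describe immune cells alone. Of 5 oligodendrocyte loci 2 were higher and 1 lower, and of 9 ganglion cell and 7 horizontal cell loci 1 each was higher and 1 lower. Of 11 amacrine cell loci 2 were higher. Among the falls that passed with the RPE covariate, PCLOA was at -0.88 (FDR 1.18e-04), PCLOB at -1.03 (FDR 1.15e-06), BSN XLOC_021495 at -0.82 (FDR 4.53e-06), STX3A at -0.94 (FDR 0.0148) and SYT7B at -1.06 (FDR 0.0273). The part of the cone, bipolar cell, Muller glia and immune cell markers in the members' changes was not tested.

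The authors' pooled single-cell table of 39140 cells gave the share of cells in which each locus was detected, with no split by cell type or age. By the authors' values SNAP25 XLOC_013386 was detected in 75.1% of cells, CPLX4 in 74.3%, PCLOB in 60.9%, PCLOA in 40.3%, CTBP2 in 24.5%, STX3A in 23.2% and SLC17A8 in 0.738%. The share that free RNA contributes was not assessed.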

How the data were processed

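QuantSeq reads were, per the labels, trimmed with Trim Galore 0.6.7 and cutadapt 3.4, mapped with STAR 2.7.0 and counted per locus with HTSeq 0.11.2, and the authors deposited raw counts. The reads were mapped to a custom transcriptome on the GRZ assembly. No genome of that build was used here, so no coordinates are printed, and the strand setting is not given in the sources used here. A pooled table deposited by the authors gave locus names, the percent of single cells with a locus detected and the count of such cells. Members and gene lists were chosen with earlier results of these data known. Names were also read with a spaced copy number removed, giving 129 members in place of 126, and 85 matched a RefSeq symbol (NfurGRZ-RIMD1) through the table's second name.

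Categories that name no locus (17.97% to 27.7% of reads on no feature and 0.838% to 1.85% ambiguous per fish) were left out. Groups came from the sample titles. Counts of all 24989 loci were filtered with filterByExpr, scaled with TMM factors and fitted with edgeR 4.0.16 (glmQLFit, glmQLFTest, limma 3.58.1, R 4.3.3), with 1 coefficient per age over 30 fish and no covariate. Members passed at an FDR under 0.05, or by a stricter rule with a log2FC beyond 1 or -1 as well. Standard errors were log2FC sizes over the square root of F. Log2 ratios of summed counts, with 0.5 count added, were compared with 100000 resamples, two-sided. The fit and the permutation test were tested on simulated data. Counting error adds to the spread between fish, so loci with few counts are less precise.

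Named were members past the stricter rule, the 5 largest rises and falls, every tested CTBP2, BSN, PCLO, RIMS, RIMBP, UNC13, CPLX, SLC17A7, SNAP25, STX1, STX3, VAMP1, VAMP2, SYT1 and SYP locus and the 5 members with the highest mean CPM. A few loci that these rules cover, and 1 of 5 ratios, are not reported here. Other members are named as examples of their role after their values were seen. Alternatives were DESeq2 1.42.0, RLE factors, upper-quartile factors, no scaling beyond library size, scaling without loci above 1% of the counts, no filter, at least 1 CPM in 10 fish, the 20 fish compared, an RPE score as covariate, the fish number as a block, each fish left out, 1 count added in ratios, and the most counted locus of each name.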

Additional observations from a re-analysis of the deposited data

Results flagged for a closer look

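Among the named loci, 123 groups of 10 fish were examined for a single fish far from the others, and 13 held one, where chance gives about 5%. Of the 13 single fish, 11 were 18-week fish 1. It was the highest 18-week-old fish for SYPA (549 CPM, next 219), SYPB (689, next 436), VAMP1 XLOC_024871 (240 CPM, next 150 CPM), SYT2 XLOC_016477 (33.9, next 24.7) and SNAP25 (1160 CPM at XLOC_009982 and 488 CPM at XLOC_013386). It was the lowest for PCLOA (250 CPM, next 392), RIMS2A (67.7, next 109), UNC13C (61.5, next 93.9), BSN XLOC_016526 (14.7, next 34.1) and VAMP2 (4.53). The other 2 were STX3A in 6-week fish 8 (5.84 CPM, next 10.9) and BSN XLOC_016525 in 12-week fish 9 (53.4 CPM, next 43.6).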

How the results depend on the processing

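With RLE factors, DESeq2 and the fish number as a replicate block, 5 members were called at 18 against 6 weeks, and upper-quartile factors or scaling without the most counted loci gave 4, with all 26 lower and all 14 higher members kept by FDR except SYPA under the replicate block (13 higher). Fish numbers did not pair the samples, as 2 of 30 same-numbered pairs correlated above 0.1 (median r 0.0079). The count of 5 was 3 with library size alone, 8 with at least 1 CPM in 10 fish, 2 without 18-week fish 1 and 4, and 3 to 7 when 1 fish was left out. At 18 against 12 weeks the count of 1 was 2 with library size alone, 0 with the 20 fish compared, 2 without 18-week fish 1 and 4, and 1 to 2 with 1 fish left out (2 without 12-week fish 4 or 18-week fish 1, 2, 4 or 8). The 14 higher members at 18 against 6 weeks were 53 with library size alone, 4 with the RPE covariate and 11 to 14 with 1 fish left out, and the 26 lower were 10 with library size alone, 20 with the RPE covariate (18 of the 26 kept) and 25 to 30 with 1 fish left out. At 18 against 12 weeks the 10 higher were 28 with library size alone, 5 with the 20 fish compared, 2 with the RPE covariate, 5 without 18-week fish 1 and 4, and 6 (without 12-week fish 1) to 11 with 1 fish left out, and the 14 lower were 7 with library size alone, 12 with the RPE covariate and 11 to 16 with 1 fish left out. The median log2FC of 0.0006 was 0.3049 with library size alone, -0.0943 with the RPE covariate, -0.0349 without 18-week fish 1 and 4, and -0.0349 to 0.0168 with 1 fish left out.

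Changes of sign are listed only for the reported loci that the naming rules cover. Members outside these rules changed sign as well, such as SYT4 at -0.044 with the RPE covariate. Among the loci covered, log2FC that changed sign were, with library size alone, UNC13C 0.034, RIMS1 0.039, RIMBP2 0.26 (XLOC_006943) and 0.14 (XLOC_023676), CTBP2 0.079, SLC17A7 XLOC_008371 0.21, SYPB 0.30 (FDR 0.0116) and RIMS2B 0.19. With the RPE covariate they were SYT1A -0.046, VAMP1 -0.039 (XLOC_010525) and -0.094 (XLOC_024872), CPLX3 -0.075, BSN XLOC_016525 -0.10, SYT5B -0.062 and SYPA -0.10. SYPB was 0.0088 with no filter, and without 18-week fish 1 and 4 RIMBP2 XLOC_006943 was 0.0276 and CPLX4 -0.0349. With 1 fish left out, ranges that crossed 0 were -0.12 to 0.037 for RIMBP2 XLOC_006943, -0.0341 to 0.0412 for CPLX4, -0.0339 to 0.047 for BSN XLOC_016525, -0.11 to 0.022 for SYPB and -0.070 to 0.13 for VAMP1 XLOC_024872. The 4 ratios given kept their direction and side of the threshold in each alternative run. The cause of these shifts was not tested. The ratio of UNC13B to UNC13A was not run, since no UNC13A locus was tested. Loci of a few CPM, such as SNAP25 XLOC_009983, are limited by depth.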
